A study of Mus musculus with 12 samples.

Results

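Transcripts of the proteasome were followed in cells that model, in the mouse, MYC-driven medulloblastoma of Group 3 (an embryonal brain tumour) during treatment with an inhibitor of histone deacetylases. Members were the genes whose symbol on the array starts with Psma, Psmb, Psmc, Psmd, Psme, Psmf or Psmg and a digit. Psmb8 and Psmb9 were left out, and each gene was read from its brightest probe set among those that name 1 gene. This gave 47 of the 22180 genes with such a probe set, and all 47 were bright enough to be among the 18652 genes tested. They were 7 genes of the core's alpha ring, 9 of its beta ring, 9 of the base, 8 of the lid, 5 regulators and 7 assembly chaperones. A further 2, Psmc3ip and Psme3ip1, carry the name of a partner and lie outside the complex, so 45 members belong to the proteasome and its helpers. Psma4 was read only by probe sets that also name another gene and is no member here.

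The cells, named MP, were isolated from tumours carried in the cerebellum by NSG mice, an immunodeficient strain, and grown in neurocult medium with a proliferation supplement. The groups were cells given 25 nM LBH589 (panobinostat) and lysed at 6 h, cells given 0.00025% DMSO, the solvent, and lysed at 6 h, and the same pair lysed at 12 h. Each group held 1 array of each of the tumours MP525, MP567 and MP570, so there were 3 arrays per group and 12 in all. The sources used here do not say whether a tumour's 4 arrays came from separate cultures. The comparison was made to learn how inhibitors of histone deacetylases are toxic to these cells.

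The proteasome degrades proteins marked with ubiquitin. Its 20S core is a barrel of alpha and beta rings, and the catalytic sites lie on the beta subunits encoded by Psmb5 (chymotrypsin-like), Psmb6 (caspase-like) and Psmb7 (trypsin-like). The 19S particle on its ends has a base, with ATPases (Psmc genes) that unfold the substrate, and a lid that removes the ubiquitin chain. In mammalian cells that lose proteasome activity, the transcription factor encoded by Nfe2l1 raises many subunit genes together through antioxidant response elements in their promoters.

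Promoters of 4 members called over both times, chosen after their values were seen, are shown first to set 2 that were lower beside 2 that were higher. Psmb5 and Psmb10 were lower with LBH589, and Psmd8 and Psmd9 were higher. Each sequence is the 250 bases before the gene's start in RefSeq (GRCm38.p6), read 5′ to 3′ along the gene's strand. They lie at chr14:54617996-54618245 (Psmb5, minus strand), chr8:105938393-105938642 (Psmb10, minus), chr7:29180674-29180923 (Psmd8, minus) and chr5:123227940-123228189 (Psmd9, plus). Capitals mark matches on either strand to the antioxidant response element TGACNNNGC, the CCAAT box or the E-box CACGTG, a site that MYC can bind. The matches shown do not overlap.
Psmb5: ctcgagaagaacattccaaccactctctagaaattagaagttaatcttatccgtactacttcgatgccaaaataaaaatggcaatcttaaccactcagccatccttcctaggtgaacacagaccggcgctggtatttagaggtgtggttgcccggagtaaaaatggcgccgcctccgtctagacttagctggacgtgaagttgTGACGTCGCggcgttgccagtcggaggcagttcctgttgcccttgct
Psmb10: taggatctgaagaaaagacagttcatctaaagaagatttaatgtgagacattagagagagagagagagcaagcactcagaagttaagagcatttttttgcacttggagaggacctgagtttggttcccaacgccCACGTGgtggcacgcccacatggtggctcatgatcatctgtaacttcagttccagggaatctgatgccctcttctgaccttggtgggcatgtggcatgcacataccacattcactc
Psmd8: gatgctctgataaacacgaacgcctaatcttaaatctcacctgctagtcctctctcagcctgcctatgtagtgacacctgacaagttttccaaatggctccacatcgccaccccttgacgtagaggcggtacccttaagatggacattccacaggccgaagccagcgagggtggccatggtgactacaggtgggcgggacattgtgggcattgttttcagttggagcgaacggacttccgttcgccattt
Psmd9: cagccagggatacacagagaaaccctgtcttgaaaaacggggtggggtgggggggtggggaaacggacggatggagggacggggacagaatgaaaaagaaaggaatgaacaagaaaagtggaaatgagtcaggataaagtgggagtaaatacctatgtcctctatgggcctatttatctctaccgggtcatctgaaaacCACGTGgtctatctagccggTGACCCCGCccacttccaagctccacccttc
The windows of Psmb5 and Psmd9, which moved in opposite directions, each held 1 match to the antioxidant response element. Psmb10 and Psmd9, also opposite, each held 1 E-box, and Psmd8 held none of the 3 motifs. Motifs were counted for 37 members, in 40 windows of RefSeq promoters. Other members were left out of this set, among them Psma8, Psmb2 (called higher over both times) and Psmg2 (called lower). Member windows on 1 chromosome were left out by rule, and that rule was not applied to the windows of all genes. The shares were not tested against each other. Member shares therefore describe only the 40 windows. The antioxidant response element matched 12.5% of these windows and 10.2% of the 32851 windows of all genes. The CCAAT box matched 32.5% of member windows and 33.8% of all windows, and the E-box 7.5% and 6.02%. Members called higher, called lower and not called over both times held the antioxidant response element in 1 of 9, 1 of 4 and 3 of 27 windows. A match is a description of letters and not a bound site.

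LBH589 moved single subunits in both directions and by small amounts, and the median change over the 45 complex members was -0.04 at 6 h and -0.05 at 12 h, beside -0.02 and 0.01 over all tested genes. At 6 h, 7 of 47 members were called (limma, adjusted p under 0.05 over all tested genes), 4 higher and 3 lower, where 15.8% of all tested genes were called (8.49% higher and 7.31% lower). With the tumour as a block, 16 members were called, 11 higher and 5 lower, where 34% of all genes were (18% and 16%). At 12 h, 6 members were called, 4 higher and 2 lower, where 18.2% of all genes were called (9.13% higher, 9.07% lower). The block raised this to 18, of which 7 were higher and 11 lower, where 37.1% of all genes were called (18.6% and 18.5%). Averaged over both times, 15 members were called, 10 higher and 5 lower, against 30.1% of all genes (15.7% higher and 14.4% lower). With the block the count was 24, with 12 in each direction, against 45.9% of all genes (23.7% higher and 22.2% lower). Without the block the members' share of calls lay near that of all genes at 6 h and over both times and below it at 12 h. With the block it lay near that of all genes at 6 h and 12 h and somewhat above it over both times. These shares were not tested, and none is read as setting the members apart. The largest change of a member over both times was 0.57 on the log2 scale in size, and 13.2% of all tested genes moved by more. Values are from whole cultures, so fewer cells of a type and less RNA per cell cannot be told apart.

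The drug fits that leave out 1 array or 1 tumour were made without the block. In them the count at 6 h depended on single arrays. It was 2 without the LBH589 array of MP525 or that of MP567, 1 without the LBH589 array of MP570, 3 without the DMSO array of MP525 and 4 without the DMSO array of MP570. With 1 array left out a group lacks a tumour, so differences in level between tumours enter its mean. With all arrays, every member called at 6 h without the block was also called with it (limma adjusted p = 0.000242 to 0.0051). Without the block, no call at 6 h held without every array in turn, against 3 of 6 at 12 h and 12 of 15 over both times. Of the calls at 12 h, 1, that of Psmb5, also held without each tumour. That of Psmb10 did not hold without MP525 (limma adjusted p = 0.0556) or MP570 (0.105), and that of Psmd8 without any of the tumours (0.0554 to 0.0787). Over both times, 4 members, Psmb5, Psmb10, Psmb2 and Psmd8, also kept their call without each tumour, and the others lost it without at least 1 tumour. Of all 47 members, called or not, 9 were higher in each tumour at each time and 6 were lower, where 19.7% and 18.7% of all tested genes were. Of the 15 members called over both times, 12 kept 1 direction in this way, but the call itself favours such genes.

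With the tumour as a block and not without it, limma called Psma2, Psma3, Psma5, Psmb4, Psmd4, Psme4, Psmd9, Psmd10 and Psmg4 at 6 h (limma adjusted p = 0.0041 to 0.0313). The same was so at 12 h for Psma2, Psma3, Psmb6, Psmd1, Psmd2, Psmd4, Psmd11, Psmd12, Psmd14, Psme3, Psmg2 and Psme3ip1 (limma adjusted p = 0.00571 to 0.0428). Over both times it was so for Psmb4, Psmb6, Psmc2, Psmd1, Psmd11, Psmd13, Psme1, Psme3 and Psmg4 (limma adjusted p = 0.00621 to 0.0385). The fit without the block keeps the differences in level between tumours in its spread.

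**Figure D1:**
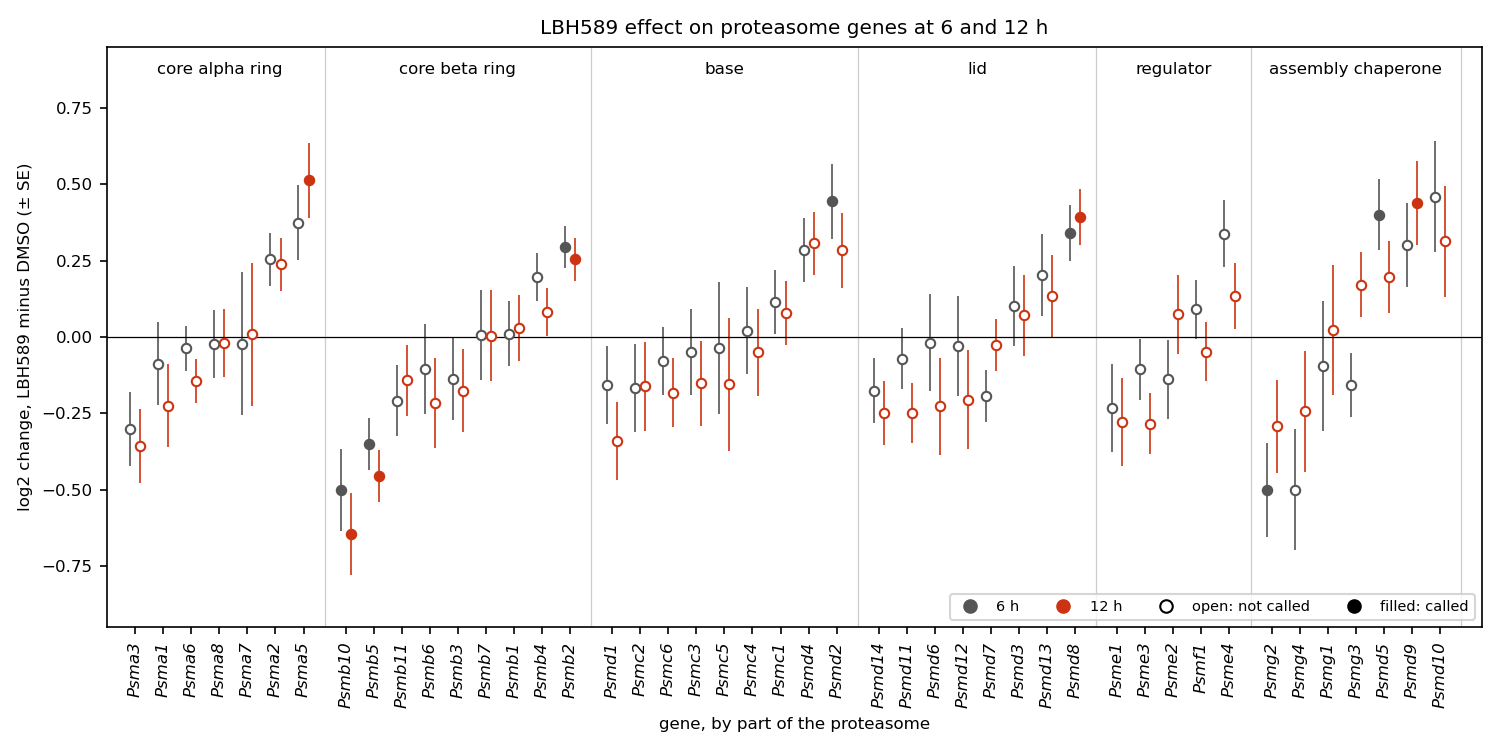
Log2 change (LBH589 minus DMSO, y axis, with standard error) of the 45 members of the complex, its regulators and chaperones, grouped by part (x axis), at 6 h (grey) and 12 h (red). Filled points were called without the tumour block. Every part holds points on both sides of 0, and Psmb10 (-0.50 and -0.64) and Psmb5 (-0.35 and -0.45) lie lowest in the beta ring.

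Among the catalytic subunits, the chymotrypsin-like one was lower with LBH589 and the trypsin-like one was not called. Psmb5, the subunit that the drug bortezomib blocks, had log2 values of 12.58, 12.48 and 12.67 in LBH589 cells of MP525, MP567 and MP570 at 6 h, against 12.87, 12.89 and 13.03 in DMSO cells. Psmb5 at 12 h had 12.57, 12.39 and 12.68 in LBH589 cells, against 12.91, 13.06 and 13.03 in DMSO cells. Every LBH589 array lay below every DMSO array. The change of Psmb5 was -0.35 ± 0.08 after 6 h and -0.45 ± 0.08 after 12 h (log2 ± SE, limma adjusted p = 0.0158 and 0.00346). Over both times it was -0.40 ± 0.06, which is 1.32-fold lower (limma adjusted p = 0.000382). At 6 h the call of Psmb5 did not hold without the LBH589 array of MP567 (limma adjusted p = 0.0582) or the DMSO array of MP570 (0.0605).

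Psmb6, the caspase-like subunit, had 10.68, 11.08 and 10.93 in LBH589 cells of MP525, MP567 and MP570 at 6 h, against 10.83, 11.06 and 11.11 in DMSO cells. At 12 h Psmb6 had 10.54, 11.003 and 10.82 in LBH589 cells, against 10.87, 11.14 and 11.01 in DMSO cells. The groups overlapped at both times and MP525 was lowest in each. Its change was -0.22 ± 0.15 at 12 h, which passed with the tumour as a block and not without it (limma adjusted p = 0.0308 and 0.364). Psmb7, the trypsin-like subunit, had 11.39, 11.55 and 11.57 in LBH589 cells at 6 h, against 11.27, 11.61 and 11.62 in DMSO cells. At 12 h Psmb7 had 11.43, 11.56 and 11.63 in LBH589 cells, against 11.24, 11.85 and 11.52 in DMSO cells. The groups overlapped, with changes of 0.01 and 0.00 (SE 0.15 each), and neither fit called Psmb7.

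Psmb10, the immunoproteasome's replacement for Psmb7, fell further than any other member. It had 8.96, 9.17 and 9.04 in LBH589 cells of MP525, MP567 and MP570 at 6 h, against 9.52, 9.48 and 9.67 in DMSO cells. Psmb10 at 12 h had 9.08, 9.08 and 8.66 in LBH589 cells, against 9.59, 9.52 and 9.64 in DMSO cells. No LBH589 array reached a DMSO array. The change of Psmb10 was -0.50 ± 0.13 after 6 h and -0.64 ± 0.13 after 12 h (limma adjusted p = 0.0258 and 0.00644), and -0.57 ± 0.09 over both, or 1.49-fold lower (limma adjusted p = 0.000775). At 6 h this call did not hold without either array of MP525 (limma adjusted p = 0.0928 without LBH589 and 0.0582 without DMSO) or of MP570 (0.081 and 0.0888). The immunoproteasome's other catalytic genes, Psmb8 and Psmb9, lie outside the name rule and were not called. Psmb8 differed by -0.22 ± 0.11 at 6 h and -0.10 ± 0.11 at 12 h, and Psmb9 by -0.07 ± 0.12 and -0.02 ± 0.12. Since immune cells carry much immunoproteasome, markers of microglia and macrophages were read beside Psmb10. Of 7 tested, 0 were called at 6 h and 1, Cd68, was higher in LBH589 at 12 h (9.35 against 8.65 in DMSO). Most of the others went the other way at 12 h, none of them called. Ptprc (5.93 against 6.64 in DMSO), Itgam (7.12 against 7.58), Aif1, Csf1r and Cx3cr1 had lower means with LBH589. Ptprc was dim, above its array's 25th percentile on 6 of 12 arrays, and Aif1 lay above the array median on 0. Tyrobp was near level (7.98 against 7.93). The mean level of the 7 markers was 7.37 to 7.57 in LBH589 and 7.54 to 7.61 in DMSO at 6 h. At 12 h it was 7.38 to 7.64 in LBH589 and 7.41 to 7.91 in DMSO, and its part in the fall of Psmb10 was not tested.

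Of the structural beta subunits, Psmb2 rose. It had 12.19, 12.08 and 12.17 in LBH589 cells of MP525, MP567 and MP570 at 6 h, against 11.88, 11.87 and 11.81 in DMSO cells. At 12 h Psmb2 had 12.20, 12.15 and 12.08 in LBH589 cells, against 11.92, 11.81 and 11.94 in DMSO cells. All LBH589 arrays lay above all DMSO arrays, with the tumours close together. The change was 0.29 ± 0.07 after 6 h and 0.25 ± 0.07 after 12 h (limma adjusted p = 0.0137 and 0.0243), and 1.21-fold over both times (limma adjusted p = 0.00124). At 6 h the call of Psmb2 did not hold without the LBH589 array of MP525 (limma adjusted p = 0.0563) or MP570 (0.0556). That at 12 h did not hold without the LBH589 array of MP525 (limma adjusted p = 0.07) or MP567 (0.0526), without the DMSO array of MP567 (0.0915), or with eBayes without a trend. The other beta genes, Psmb1, Psmb3, Psmb4 and the thymic Psmb11, were not called without the block. Over the 9 beta genes the median change was -0.10 at 6 h and -0.14 at 12 h, beside -0.02 and 0.01 over all tested genes. Psmb11 was dim, above its array's 25th percentile on 11 of 12 arrays.

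**Figure D2:**
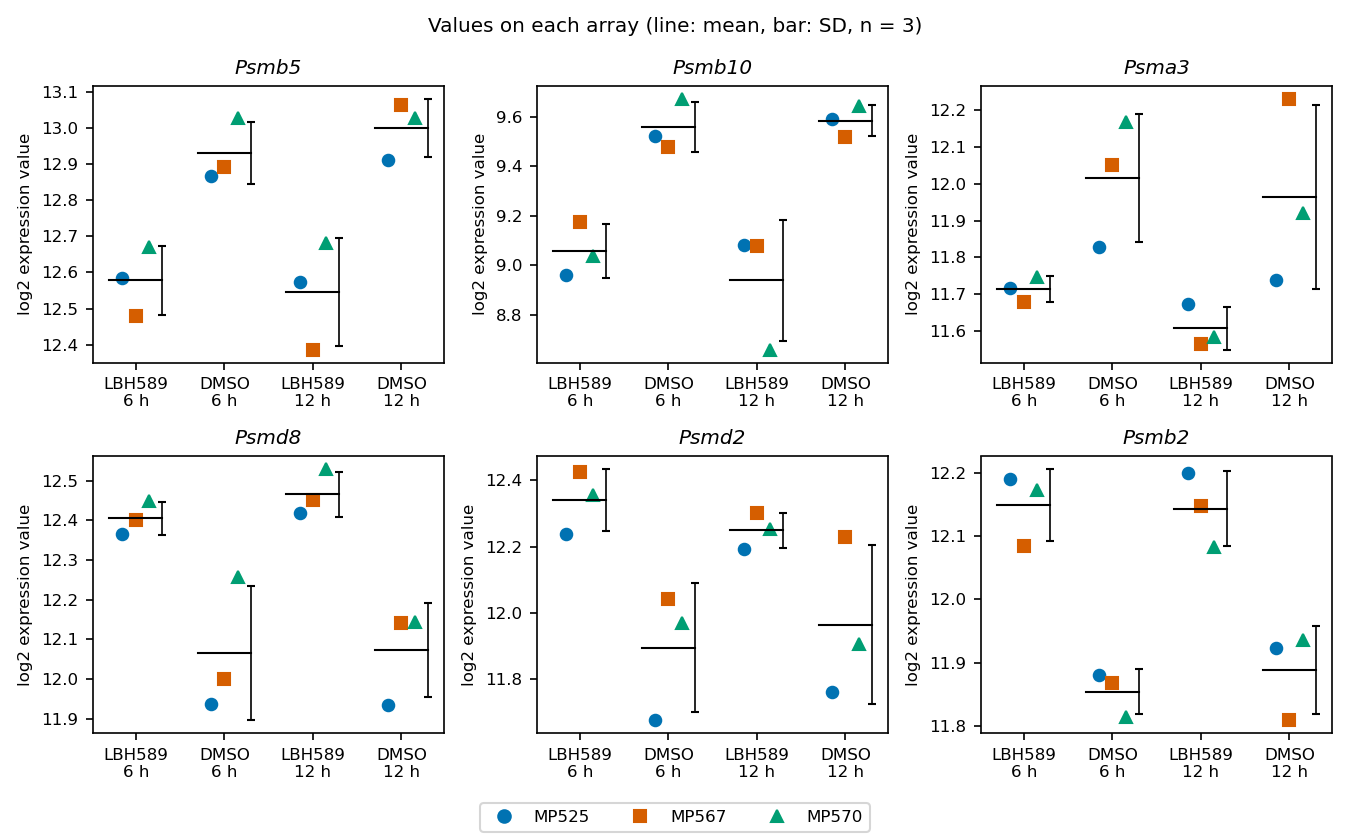
Log2 expression value (y axis) on every array for Psmb5, Psmb10, Psma3, Psmd8, Psmd2 and Psmb2, by treatment and time (x axis), with the mean and SD of 3 arrays; symbols give the tumour. LBH589 and DMSO arrays are apart at both times for Psmb5, Psmb10, Psma3, Psmd8 and Psmb2, and Psmd2 overlaps at 12 h.

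In the alpha ring, which gates entry to the core, 1 gene fell and 2 rose over both times. Psma3 had 11.72, 11.68 and 11.75 in LBH589 cells of MP525, MP567 and MP570 at 6 h, against 11.83, 12.05 and 12.17 in DMSO cells. Psma3 at 12 h had 11.67, 11.56 and 11.58 in LBH589 cells, against 11.74, 12.23 and 11.92 in DMSO cells. LBH589 arrays were all lower, and the gap was small in MP525. The change of Psma3 was -0.33 ± 0.09 over both times (limma adjusted p = 0.0123), and neither time alone passed without the block (limma adjusted p = 0.124 at 6 h and 0.0633 at 12 h, 0.0313 and 0.0117 with it).

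Psma2 rose 1.19-fold over both times (0.25 ± 0.06, limma adjusted p = 0.0094) and was higher in 6 of 6 pairs of a tumour and time. Psma5 had 6.60, 6.56 and 6.57 in LBH589 cells of MP525, MP567 and MP570 at 6 h, against 6.07, 6.15 and 6.38 in DMSO cells, and at 12 h 7.01, 6.66 and 6.73 in LBH589 cells, against 6.24, 6.14 and 6.50 in DMSO cells. These Psma5 levels are just above the arrays' 25th percentiles, which lay between 5.94 and 6.04. Its change of 0.44 ± 0.09 over both times passed (limma adjusted p = 0.0024), and so did 0.51 ± 0.12 at 12 h (limma adjusted p = 0.0137). At 12 h the call of Psma5 did not hold without the DMSO array of MP567 (limma adjusted p = 0.0555). A second Psma5 probe set differed by 0.16 at 6 h and -0.23 at 12 h, and both calls were lost with the mean of the 2 probe sets. Psma1, Psma6, Psma7 and the testis form Psma8 were not called in either fit for the drug.

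In the 19S base, calls fell on the genes that are not ATPases. Without the block none of the 6 ATPase genes was called in any drug comparison, and with it 1 was, Psmc2 over both times (-0.16, limma adjusted p = 0.0385). Their median change was -0.04 at 6 h and -0.15 at 12 h. Psmd2, a scaffold that receives ubiquitin shuttle factors, rose. It had 12.24, 12.42 and 12.36 in LBH589 cells of MP525, MP567 and MP570 at 6 h, against 11.68, 12.04 and 11.97 in DMSO cells. At 12 h Psmd2 had 12.19, 12.30 and 12.25 in LBH589 cells, against 11.76, 12.23 and 11.91 in DMSO cells. The groups were apart at 6 h and overlapped at 12 h through the DMSO array of MP567. The change was 0.44 ± 0.12 at 6 h (limma adjusted p = 0.0309), 0.28 ± 0.12 at 12 h (0.142, or 0.00571 with the block) and 1.29-fold over both (limma adjusted p = 0.00769). At 6 h the call of Psmd2 did not hold without the LBH589 arrays of MP567 (limma adjusted p = 0.092) or MP570 (0.0892), the DMSO arrays of MP525 (0.115) or MP570 (0.052), or with arrays centred on their medians. Psmd4, a receptor for ubiquitin chains, rose 1.23-fold over both times (0.30 ± 0.07, limma adjusted p = 0.00901), with all LBH589 arrays above all DMSO arrays at each time. Psmd1, the other large scaffold, had changes of -0.16 ± 0.13 at 6 h and -0.34 ± 0.13 at 12 h, and passed at 12 h only with the block (limma adjusted p = 0.0902 without and 0.0123 with it).

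In the lid, Psmd8 rose and the deubiquitinase gene Psmd14 was slightly lower. Psmd8, a structural subunit that joins the lid late, had 12.37, 12.40 and 12.45 in LBH589 cells of MP525, MP567 and MP570 at 6 h, against 11.94, 12.00 and 12.26 in DMSO cells. At 12 h Psmd8 had 12.42, 12.45 and 12.53 in LBH589 cells, against 11.94, 12.14 and 12.14 in DMSO cells. The groups were apart at both times, and the 3 tumours lay closer together with LBH589. The change was 0.34 ± 0.09 after 6 h and 0.39 ± 0.09 after 12 h (limma adjusted p = 0.0257 and 0.0112), and 1.29-fold over both times (limma adjusted p = 0.00113). At 6 h the call of Psmd8 did not hold without any LBH589 array of that time (limma adjusted p = 0.0563 to 0.0893), without the DMSO arrays of MP525 (0.098) or MP567 (0.087), or with arrays centred on their medians. Psmd14, which encodes the enzyme that cuts ubiquitin chains off the substrate, changed by -0.21 ± 0.07 over both times (limma adjusted p = 0.0496). That call was lost without any of 10 single arrays (limma adjusted p = 0.0693 to 0.12), the exceptions being the DMSO arrays of MP525. It was also lost with quantile normalization, with arrays centred on their medians, with no filter and with eBayes without a trend. The other lid genes were not called without the block. With it 1 of the 8 lid genes, Psmd8, was called higher at 12 h, and 3, Psmd11, Psmd12 and Psmd14, were called lower.

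Among regulators, no cap gene of the PA28 family was called without the block. Psme1 had 7.88, 8.09 and 8.08 in LBH589 cells of MP525, MP567 and MP570 at 6 h, against 7.93, 8.39 and 8.43 in DMSO cells. At 12 h Psme1 had 8.08, 8.05 and 8.11 in LBH589 cells, against 8.18, 8.54 and 8.37 in DMSO cells. It was lower in 6 of 6 pairs, by -0.26 ± 0.10 over both times, which passed with the block alone (limma adjusted p = 0.0821 without and 0.0113 with it). Psme2, its partner in the ring, had 8.76, 8.69 and 8.79 in LBH589 cells at 6 h, against 8.76, 8.92 and 8.98 in DMSO cells. At 12 h Psme2 had 8.78, 9.25 and 8.96 in LBH589 cells, against 9.02, 8.86 and 8.88 in DMSO cells. The Psme2 groups overlapped and no fit called it. The nuclear form Psme3 was lower at 12 h with the block (-0.28 ± 0.10, limma adjusted p = 0.00679 with it and 0.0714 without). Psme4, an activator that acts on acetylated histones, was higher over both times (0.24 ± 0.08, limma adjusted p = 0.036), a call lost without any of 7 single arrays (limma adjusted p = 0.0505 to 0.0888): the LBH589 arrays of MP567 and MP570 at 6 h and of MP525 and MP570 at 12 h, the DMSO arrays of MP525 and MP570 at 6 h, and the DMSO array of MP525 at 12 h. Centring arrays on their medians ended it too. Psmf1, which encodes an inhibitor of the core in the test tube, was not called.

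Of the 7 assembly chaperones, 3 were called higher and 1 lower over both times, where 15.7% and 14.4% of all genes were. The 3 base chaperones that meet the name rule, Psmd5, Psmd9 and Psmd10, were called higher over both times. Of the 4 core chaperones that meet it 1, Psmg2, was called lower. Whether direction goes with the part that a chaperone builds was not tested. Psmd9 had 10.19, 10.13 and 9.99 in LBH589 cells of MP525, MP567 and MP570 at 6 h, against 9.70, 9.998 and 9.70 in DMSO cells. At 12 h Psmd9 had 10.11, 10.25 and 9.93 in LBH589 cells, against 9.66, 9.83 and 9.48 in DMSO cells. It was higher in 6 of 6 pairs, and the groups were apart at 12 h. The change was 0.44 ± 0.14 at 12 h (limma adjusted p = 0.0446) and 1.29-fold over both times (limma adjusted p = 0.0123). At 12 h the call of Psmd9 did not hold without any of 9 single arrays (limma adjusted p = 0.0537 to 0.158), all but the LBH589 array of MP570 at 12 h and the DMSO arrays of MP567, with arrays centred on their medians and with no filter.

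Psmd5 had 11.42, 11.39 and 11.43 in LBH589 cells of MP525, MP567 and MP570 at 6 h, against 10.80, 11.13 and 11.10 in DMSO cells. At 12 h Psmd5 had 11.24, 11.06 and 11.19 in LBH589 cells, against 10.83, 11.17 and 10.90 in DMSO cells. The groups were apart at 6 h, and at 12 h the DMSO array of MP567 lay among the LBH589 arrays. Its change was 0.40 ± 0.12 at 6 h (limma adjusted p = 0.0377) and 0.30 ± 0.08 over both times (limma adjusted p = 0.0168). At 6 h the call of Psmd5 did not hold without any LBH589 array of that time (limma adjusted p = 0.0778 to 0.108), without the DMSO arrays of MP525 (0.139) or MP570 (0.054), or with arrays centred on their medians. Psmd10, known as the oncoprotein gankyrin, had 10.32, 10.40 and 10.57 in LBH589 cells at 6 h, against 9.52, 10.10 and 10.29 in DMSO cells. At 12 h Psmd10 had 10.27, 10.15 and 10.36 in LBH589 cells, against 9.73, 10.10 and 10.01 in DMSO cells. All LBH589 arrays were higher, and MP525 had the widest gaps (0.80 at 6 h and 0.54 at 12 h). The change over both times was 0.39 ± 0.13 (limma adjusted p = 0.0401), a call lost without any of 8 single arrays (limma adjusted p = 0.0519 to 0.0955), all but the DMSO arrays of MP567, the LBH589 array of MP567 at 12 h and the DMSO array of MP570 at 6 h, and with arrays centred on their medians.

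Psmg2, which pairs with Psmg1 to start the alpha ring, had 10.16, 9.97 and 10.32 in LBH589 cells of MP525, MP567 and MP570 at 6 h, against 10.67, 10.48 and 10.81 in DMSO cells. At 12 h Psmg2 had 10.63, 10.08 and 10.21 in LBH589 cells, against 10.60, 10.54 and 10.65 in DMSO cells. The 6 h groups were apart and each tumour fell by a like amount (-0.51, -0.50 and -0.49), while at 12 h MP525 differed by 0.02. The change was -0.50 ± 0.15 at 6 h (limma adjusted p = 0.0452) and -0.40 ± 0.11 over both times (limma adjusted p = 0.0151). At 6 h the call of Psmg2 did not hold without any of 9 single arrays (limma adjusted p = 0.0558 to 0.147), all but the DMSO array of MP567 at 6 h and the LBH589 arrays of MP525 and MP567 at 12 h. Both Psmg2 calls were lost with the mean of its 2 probe sets, of which the second is dim, and that at 6 h with no filter. Psmg4, a chaperone of the alpha ring, had 8.58, 9.02 and 8.69 in LBH589 cells at 6 h, against 9.12, 9.32 and 9.35 in DMSO cells. At 12 h Psmg4 had 8.63, 9.24 and 8.40 in LBH589 cells, against 8.87, 8.98 and 9.15 in DMSO cells. Its groups were apart at 6 h alone, and the change of -0.50 ± 0.20 at 6 h passed with the block and not without it (limma adjusted p = 0.0158 and 0.118). Psmg1 and Psmg3 were not called in either fit.

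No member was called for a change between the times. None was called for 12 h against 6 h in LBH589 cells, where 0% of all genes were called, or in DMSO cells, where 0.0214% were. The drug effect at 12 h was not called different from that at 6 h for any member, beside 0% of all genes. With the tumour as a block the member counts were also 0, where 1.99% (LBH589), 0.311% (DMSO) and 0.0107% (difference) of all genes were called in these comparisons. At an unadjusted p under 0.05, limma without the block gave 2 members in LBH589, 1 in DMSO and 2 for the difference, where 7.59%, 2.21% and 2.63% of all genes passed. With the block these counts were 8 in LBH589, 2 in DMSO and 2 for the difference, where 18.4%, 7.11% and 9.27% of all genes passed. The widest difference between the drug effects was that of Psmg3, a chaperone of the core, whose 6 h and 12 h changes were -0.16 ± 0.10 and 0.17 ± 0.10. Its LBH589 arrays lay wholly below the DMSO arrays at 6 h and wholly above them at 12 h, and the difference of 0.33 ± 0.15 did not pass (limma adjusted p = 0.9998).

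Arrays that did not overlap gave a like picture for the drug. At 6 h, 11 members had all LBH589 arrays above all DMSO arrays and 7 had all below, where 16.4% and 16.5% of all tested genes did. At 12 h the counts were 8 above and 9 below, where 16.6% and 15.4% of all genes did. Outside the complex, Psme3ip1 was among the 11 at 6 h and was called lower at 12 h with the block alone (-0.17, limma adjusted p = 0.0401), while Psmc3ip was not called.

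**Figure D3:**
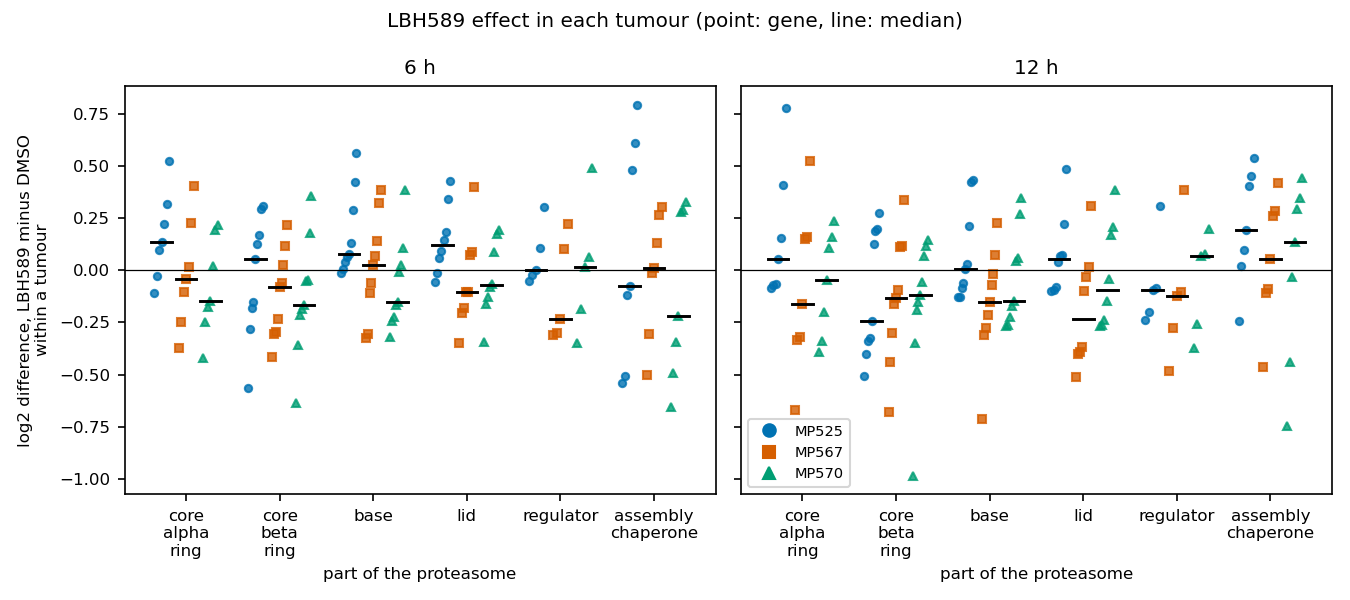
Difference between the LBH589 and DMSO array of the same tumour (y axis, log2) for each member of the complex, by part of the proteasome (x axis), at 6 h and 12 h. Points are genes and lines are medians; MP525 medians at 6 h are 0.14 in the alpha ring and 0.12 in the lid, and those of MP570 are -0.15 and -0.07.

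Within tumours, the median drug difference over the 45 complex members was 0.09 in MP525, -0.06 in MP567 and -0.13 in MP570 at 6 h. At 12 h it was 0.03, -0.11 and -0.05 in the same tumours. Over all tested genes the medians were 0.00, 0.00 and -0.04 at 6 h and -0.03, -0.02 and 0.07 at 12 h. No member's drug effect was called different between tumours by limma's F-test of treatment by tumour, where 1.06% of all genes were called. At an unadjusted p under 0.05, 9 of 47 members and 14.2% of all genes passed.

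The tumours differed in many members, at a rate near that of all genes, and MP525 was mostly the lowest. Limma's F-test of the tumour called 19 of 47 members, 18 of them in the complex, where 37.4% of all tested genes were called. This count was 12 without the DMSO array of MP525 at 6 h or without that at 12 h. The p-values of this F-test measure tumours against the spread between the 4 arrays of a tumour. Whether these came from separate cultures is not known here. Psma7, an alpha ring gene, had 10.90, 11.44 and 11.18 in LBH589 cells of MP525, MP567 and MP570 at 6 h, against 10.80, 11.42 and 11.36 in DMSO cells, and at 12 h 10.76, 11.57 and 11.12 in LBH589 cells, against 10.84, 11.41 and 11.16 in DMSO cells. MP525 was lowest and MP567 highest in all 4 groups. Its tumour means were 10.83 in MP525, 11.46 in MP567 and 11.20 in MP570, a span of 0.63 (limma adjusted p = 3.44e-05). The DNA recombination cofactor gene Psmc3ip, outside the complex, spanned 0.64, with 8.59 in MP525, 9.23 in MP567 and 8.70 in MP570 (limma adjusted p = 5.95e-05). Psmg1 spanned 0.52, with 9.95, 10.35 and 10.48 (limma adjusted p = 0.000335).

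Nearly all 19S genes and all regulator genes had their lowest mean in MP525. MP525 had the lowest mean for 16 of 17 genes of the 19S base and lid (94.1%), for 5 of 5 regulator genes (100%), for 9 of 16 genes of the core (56.2%), for 57.1% of the 7 assembly chaperones and for 34.9% of all tested genes. It was called and lowest for 10 of the 17 19S genes, 0 of the 5 regulators and 13.3% of all genes. In all 4 groups of treatment and time MP525 was lowest for 10 of 17 19S genes (58.8%), 4 of 16 core genes (25%) and 9.03% of all genes. These are descriptions without a test of the list. The 19S genes moved together across arrays, with a median correlation of 0.693 between their deviations from the group means (125 of 136 pairs positive). That of the core genes was 0.18. With tumour differences removed, the medians were 0.686 and 0.173. Counts of 19S genes are therefore not counts of independent genes. All 6 ATPase genes of the base had their lowest mean in MP525, and 5 were called. Psmc5 had tumour means of 9.84 in MP525, 10.38 in MP567 and 10.17 in MP570 (limma adjusted p = 0.000621), and Psmc4 had 12.34, 12.65 and 12.66 (limma adjusted p = 0.000718). In the lid, Psmd12 had 11.34, 11.75 and 11.59 (limma adjusted p = 0.000513) and Psmd3 had 10.85, 11.14 and 11.07 (limma adjusted p = 0.00339). Psmd1 was the exception among the 17, lowest in MP567 with 11.72 beside 11.93 in MP525 and 11.85 in MP570, and was not called. Of the catalytic genes, Psmb6 and Psmb7 were called and lowest in MP525 (limma adjusted p = 0.00211 and 0.0111), and Psmb5 was not (0.0889).

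In the 19S genes both treatments showed the low rank of MP525. Of these 17 genes, MP525 was lowest for 13 in LBH589 and 16 in DMSO at 6 h, and for 10 in LBH589 and 16 in DMSO at 12 h. Of the 45 complex members it was lowest for 28 in LBH589 and 38 in DMSO at 6 h. At 12 h it was lowest for 19 (42.2%) in LBH589 and 34 (75.6%) in DMSO. Of the 16 core genes at 12 h, it was lowest for 5 (31.2%) in LBH589 and 11 (68.8%) in DMSO. Over all tested genes MP525 was lowest for 32.9% in LBH589 and 37% in DMSO at 6 h, and for 36.9% in LBH589 and 31.4% in DMSO at 12 h. Whether the counts differ between treatments was not tested, and no single member was called for treatment by tumour.

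**Figure D4:**
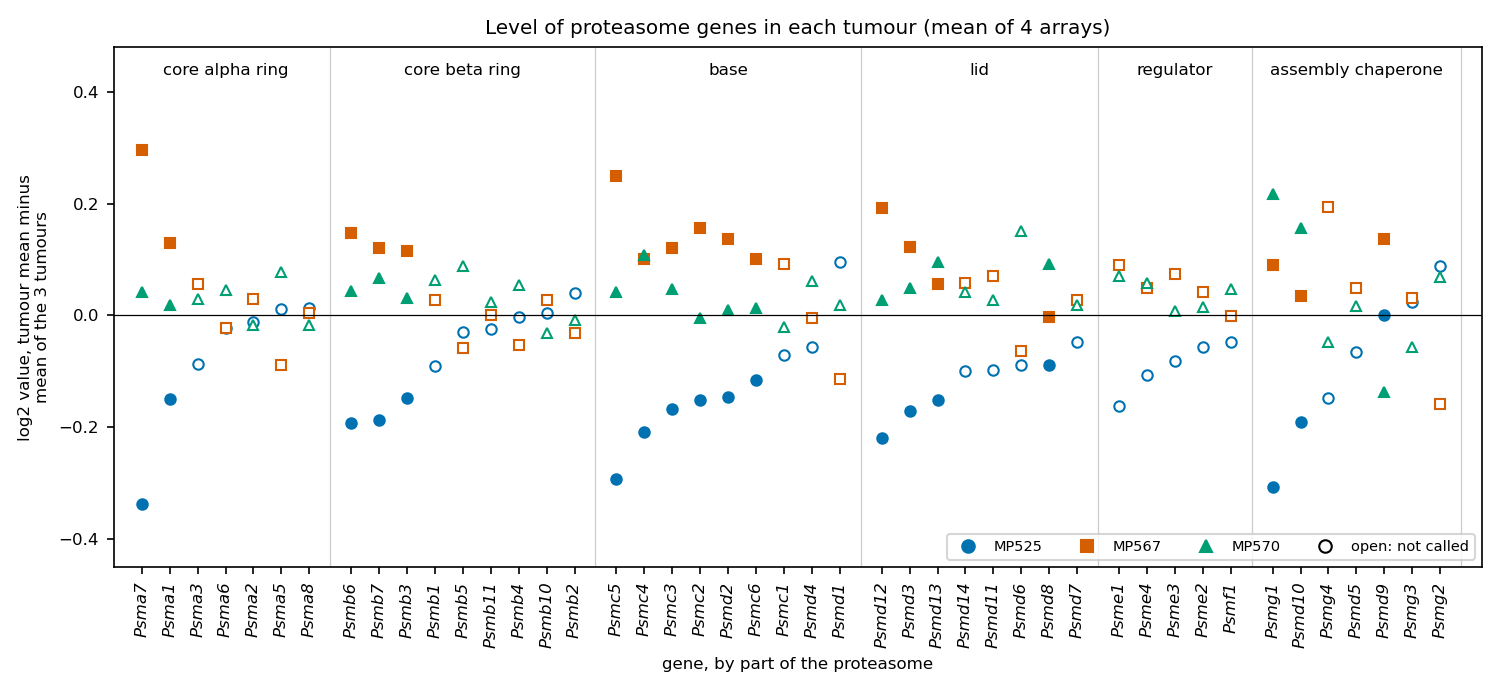
Tumour mean of 4 arrays minus the mean of the 3 tumours (y axis, log2) for each member of the complex, by part (x axis); filled points are genes called for a difference between tumours. MP525 lies below 0 for 16 of the 17 base and lid genes, where Psmd1 is the exception.

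The wider pathway was read from a list of 31 genes, of which 22 had a tested probe set of their own. At 6 h 1 was called higher and 5 lower, or 3 and 7 with the block, and at 12 h 2 were higher and 6 lower. Over both times 2 were higher and 7 lower, or 4 and 9 with the block. At 6 h the block added Zfand2a and Nfe2l1, higher, and Zfand5 and Ngly1, lower (limma adjusted p = 0.00586 to 0.0234). At 12 h it added Usp14 and Uchl5, lower (limma adjusted p = 0.00389 and 0.0432). Over both times it added Zfand2a and Nfe2l1, higher, and Txnl1 and Ngly1, lower (limma adjusted p = 0.0016 to 0.0429). For 12 h against 6 h in LBH589 cells no listed gene was called without the block. With it Sem1, a lid subunit, was higher (0.43, limma adjusted p = 0.0454) and Zfand2a lower (-0.45, 0.0295). The shares of all genes called are those given above for the same comparisons. Ecpas, which encodes the scaffold that holds the core and the 19S particle together, had the largest change. It had 9.76, 9.57 and 9.84 in LBH589 cells of MP525, MP567 and MP570 at 6 h, against 10.91, 10.75 and 10.69 in DMSO cells. At 12 h Ecpas had 9.55, 9.22 and 9.46 in LBH589 cells, against 10.90, 10.87 and 10.81 in DMSO cells. Each LBH589 array lay at 9.84 or below and each DMSO array at 10.69 or above. Its change was -1.06 ± 0.12 after 6 h and -1.45 ± 0.12 after 12 h (limma adjusted p = 0.000303 and 3.9e-05), or 2.09-fold and 2.73-fold lower. These calls held without each array and each tumour.

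Shuttle factors carry ubiquitinated proteins to the proteasome, and 3 of the 4 tested were lower at both times. Ubqln4 changed by -0.53 ± 0.12 and -0.45 ± 0.12, Ubqln2 by -0.33 ± 0.08 and -0.37 ± 0.08, and Rad23b by -0.28 ± 0.08 and -0.37 ± 0.08 at 6 h and 12 h (limma adjusted p = 0.00989 to 0.0404), while Ubqln1 was not called. Over both times all 3 held without each array and each tumour. At 6 h and at 12 h each of the 3 lost its call without at least 2 tumours (limma adjusted p = 0.06 to 0.243). The 12 h call of Ubqln4 did not hold without the MP570 array of LBH589 cells or without the MP525 or MP567 array of DMSO cells (limma adjusted p = 0.055 to 0.0742). The 6 h call of Ubqln2 did not hold without the MP525 or MP570 array of LBH589 cells or the MP525 or MP567 array of DMSO cells (limma adjusted p = 0.0736 to 0.0861). That of Rad23b did not hold without any of the 6 h arrays or of the 12 h DMSO arrays of MP525 and MP570 (limma adjusted p = 0.0517 to 0.14), with no filter and with eBayes without a trend. Vcp, the segregase that extracts ubiquitinated proteins, changed by -0.31 ± 0.08 after 6 h and -0.45 ± 0.08 after 12 h (limma adjusted p = 0.0213 and 0.00264), and at 6 h this did not hold without either array of MP525 or MP567 (0.0551 to 0.0838). The 6 h call of Vcp did not hold without any of the tumours (limma adjusted p = 0.0978 to 0.168), nor that at 12 h without MP525 (0.0529). All 3 Vcp calls were lost with the mean of its probe sets. Zfand5, a proteasome activator, was lower at 12 h (-0.36 ± 0.09, limma adjusted p = 0.0206), lost without the LBH589 arrays of MP567 or MP570 or the DMSO arrays of MP525 or MP567 (0.0584 to 0.0731). Usp14, a deubiquitinase on the 19S particle, was lower over both times (-0.29 ± 0.10, limma adjusted p = 0.0391), lost without any of 7 single arrays (0.0509 to 0.0879): both LBH589 arrays of MP567, the 6 h LBH589 array and both DMSO arrays of MP570, the 6 h DMSO array of MP525 and the 12 h DMSO array of MP567. These calls of Zfand5 and Usp14 also did not hold without any of the tumours (limma adjusted p = 0.0617 to 0.172).

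Sel1l, an adaptor of the ligase that clears proteins from the endoplasmic reticulum, was higher by 0.64 ± 0.12 after 6 h and 0.38 ± 0.12 after 12 h (limma adjusted p = 0.00412 and 0.0454). At 12 h this call did not hold without any of 10 single arrays (limma adjusted p = 0.0506 to 0.132), all but the 6 h LBH589 arrays of MP525 and MP567, with arrays centred on their medians and with no filter. The 6 h call of Sel1l did not hold without MP525 (limma adjusted p = 0.0742) or MP570 (0.0993). That at 12 h did not hold without any of the tumours (limma adjusted p = 0.0506 to 0.245). Sem1, the smallest lid subunit, which lies outside the name rule, had 10.77, 11.30 and 10.69 in LBH589 cells of MP525, MP567 and MP570 at 12 h, against 10.17, 10.47 and 10.11 in DMSO cells. The groups were apart, and the change of 0.67 ± 0.20 passed (limma adjusted p = 0.0369), a call lost without the LBH589 arrays of MP525 (0.0514) or MP567 (0.129), the DMSO arrays of MP525 (0.103) or MP570 (0.117), or with arrays centred on their medians. The 12 h call of Sem1 also did not hold without MP525 (limma adjusted p = 0.13) or MP570 (0.174). The Sem1 groups overlapped at 6 h, where the change of 0.25 ± 0.20 was not called (limma adjusted p = 0.486). Nfe2l1 itself was not called without the block, with changes of 0.24 ± 0.11 at 6 h and 0.08 ± 0.11 at 12 h. With the block that at 6 h was called (limma adjusted p = 0.0234). Pomp, the maturation factor of the core and one of its known targets, was not called (0.12 ± 0.12 and 0.13 ± 0.12).

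**Figure D5:**
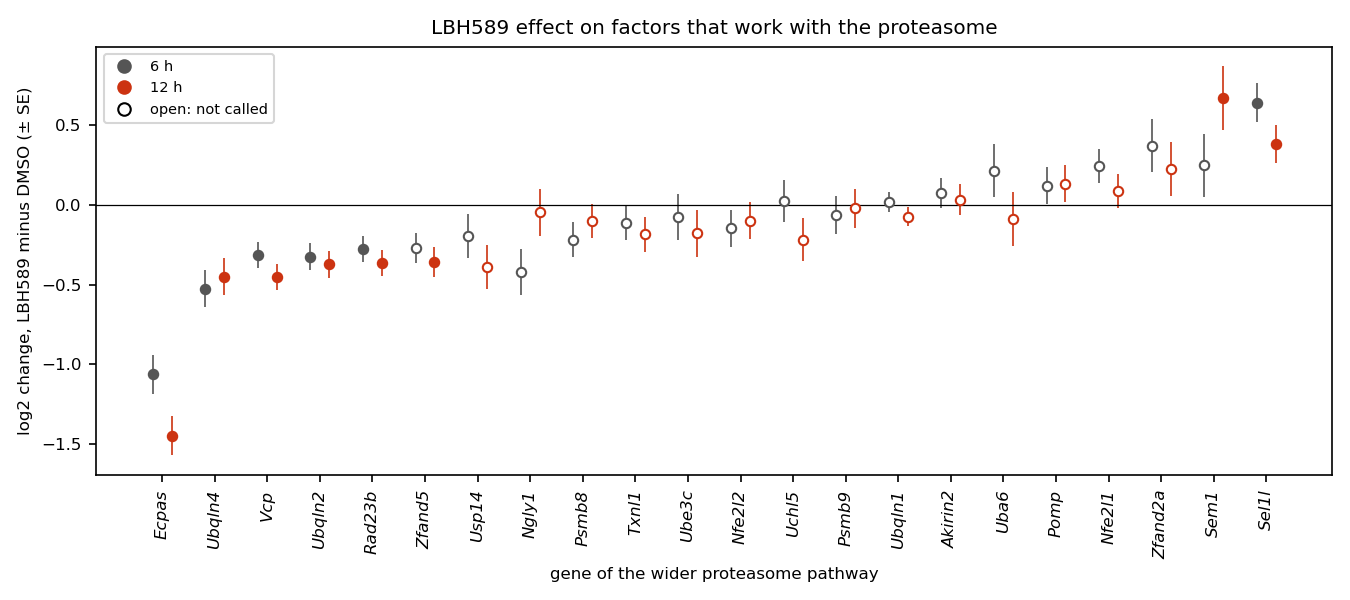
Log2 change (LBH589 minus DMSO, y axis, with standard error) at 6 h (grey) and 12 h (red) of 22 genes that work with the proteasome (x axis); filled points were called. Ecpas lies at -1.06 and -1.45, apart from the rest, and Sel1l at 0.64 and 0.38.

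As a check of the labelled cells, Myc lay above the array median on 12 of 12 arrays, while the Group 3 markers Nrl and Crx did so on 0 and Otx2 on 8. Npr3, another marker of that group, was lower with LBH589 (9.58 against 11.2 in DMSO at 6 h). Of 5 endothelial markers, Kdr was called higher at both times, and no astrocyte or oligodendrocyte marker was called. The proliferation marker Top2a was lower at 12 h (11.23 in LBH589 against 11.86 in DMSO) and Mki67 was not called. The part of these changes in the proteasome values was not tested.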

How the data were processed

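Total RNA (RNeasy kit) was made into labelled cDNA with the Ambion WT Expression kit and read on Affymetrix whole-transcript arrays, 12 in all, per the labels' protocols. The authors deposited log2 values, 1 per probe set. The log base was read from their range, 1.50 to 14.47, and the medians of the arrays lay between 7.10 and 7.21, so no further normalization was applied. Per the submitters' processing notes the program was Agilent Feature Extraction 10.7.3.1, made for another maker's arrays; the method of summary and normalization was not given in the sources used here. Arrays have no depth in counts, and their number limits the precision.

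Of 41345 probe sets, 23521 named 1 gene in the array's annotation. The brightest probe set of each of 22180 genes was kept, and a gene was tested if above its array's 25th percentile on at least 3 arrays. R 4.3.3 and limma 3.58.1 fitted the means of the 4 groups (lmFit, then eBayes with a trend) on 8 residual degrees of freedom. Two-sided p-values were adjusted by Benjamini-Hochberg over 18652 genes, and a gene was called under 0.05. Tumour differences were tested with F-tests (6 and 5 residual degrees of freedom). The labels give each tumour 1 array per group, which pairs the arrays. Deviations from the group means correlated at 0.45 to 0.805 in the 18 pairs of one tumour, and all 12 arrays correlated best with their own tumour. Values from the fit that adds the tumour as a replicate block (6 residual degrees of freedom) are printed only if a call ends or starts there or a count moves by over 1.5 times. Where 1 array is left out, its group keeps 2 and shares the spread of the others. The drug fit without the block was tried on simulated data with independent arrays, unlike the arrays here, which correlate within a tumour. The F-tests were tried on simulated data with added tumour effects. The fit with the block was not tried, so the simulations do not bear on the choice between the drug fits.

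Members were named by symbol, and the assignment to parts, the pathway list and the markers were written from general knowledge; members and lists were chosen with earlier results of these data known. Genes given on all arrays were the 10 largest members called, the 5 largest rises and falls over both times, and Psmb5, Psmb6, Psmb7, Psmb10, Psme1 and Psme2. Psmb2, Psma7 and Ecpas were added after their values were seen. Motifs and promoters were chosen likewise. Pathway genes without a tested probe set of their own were not analysed here.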

Additional observations from a re-analysis of the deposited data

Results flagged for a closer look

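A probe set that names both Armc9 and Psmd1 was left out of the comparisons because it names more than 1 gene, and its signal was higher with LBH589. It had 10.21, 9.77 and 9.78 in LBH589 cells of MP525, MP567 and MP570 at 6 h, against 9.07, 8.86 and 8.65 in DMSO cells. At 12 h it had 9.87, 9.53 and 9.59 in LBH589 cells, against 8.97, 8.85 and 8.77 in DMSO cells. Every LBH589 array lay above every DMSO array, by 1.06 at 6 h and 0.80 at 12 h between the group means. The probe set that names Psmd1 alone changed by -0.16 and -0.34. Groups of 3 arrays were too small for a test of single outlying arrays.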

How the results depend on the processing

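With the tumour as a block, the replicate block gave 16 members called at 6 h, 18 at 12 h and 24 over both times, beside 7, 6 and 15 without it. It gave 0 for the changes with time and the difference between effects, as without it. Arrays centred on their medians gave 4 members at 6 h, 1 higher and 3 lower, beside 4 higher and 3 lower as deposited. Leaving out 1 array or 1 tumour gave 0 to 8 members at 6 h, 2 to 7 at 12 h, 6 to 15 over both times and, for the difference between tumours, 12 to 21 without 1 array. Of all tested genes, the drug fits among these called 879 to 2994 at 6 h and 1265 to 3370 at 12 h. Over both times they called 3308 to 5288. With all arrays the numbers were 2948, 3395 and 5607. Quantile normalization, other filters on dim genes, averaging of probe sets and eBayes without a trend left each count within 1.5 times. Of the values of single genes under all alternatives, 1868 kept direction and side of the threshold, 228 kept direction and were no longer called, and 46 kept direction and became called. A further 33, such as some of Psmb7, were called neither way and changed sign, and 0 of the called ones did. The cause of each lost call was not tested. Dim probe sets such as those of Psma5, Psma8 and Psmb11 limit what can be said of these genes.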

Other observations

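Psma4, an alpha ring gene, was read only together with AY074887, by 2 probe sets. The brighter one had 10.48, 10.77 and 10.65 in LBH589 cells of MP525, MP567 and MP570 at 6 h, against 10.55, 10.93 and 10.91 in DMSO cells. At 12 h it had 10.49, 10.68 and 10.47 in LBH589 cells, against 10.66, 10.94 and 10.80 in DMSO cells. Its mean differences were -0.16 and -0.25, and LBH589 was lower in each tumour at both times. The dimmer one had mean differences of -0.26 at 6 h and 0.00 at 12 h, and there LBH589 was not lower in MP567 at either time or in MP570 at 12 h. A second probe set of Psmc2 had differences of -0.16 at 6 h and -0.19 at 12 h, beside -0.17 and -0.16 for the brighter one. The second, dim probe set of Psmg2 had differences of 0.11 and 0.07, beside -0.50 and -0.29 for the brighter one. A probe set shared by Psme2 and 2 other genes had differences of -0.12 and -0.19, beside -0.14 and 0.07 for the one that names Psme2 alone.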
